A study of Rattus norvegicus with 4 samples.

Results

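The protein disulfide isomerases and their membrane-bound TMX relatives form, break and rearrange disulfide bonds in proteins that fold in the endoplasmic reticulum (ER). They were followed here in ribosome footprints of ventricular cardiomyocytes from newborn rats, after knockdown of the RNA-binding protein CPEB4. The genes were Tmx1, Tmx2, Tmx3, Tmx4, P4hb, Pdia3, Pdia4, Pdia6, Txndc5 and Erp44, taken by exact gene symbol, and all 10 were found among the 22250 genes of the count files. Cells of Wistar rats aged 1 to 2 days received either an siRNA against Cpeb4 or a control siRNA for 72 h, with 2 libraries in each group. The growth protocol of all 4 libraries also mentions Torin1, an inhibitor of the kinase mTOR, at 250 nM for 24 h. It does not say which cells received it, so both groups may have carried the inhibitor.

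Members of this family carry thioredoxin-like domains, many of them with a pair of cysteines that passes a disulfide on to a client protein. Electrons are handed on to ER oxidases such as ERO1, which keep the isomerases in working order. In the heart the pathway serves secreted and membrane proteins, among them ion channels, receptors and the matrix proteins made by fibroblasts. CPEB4 binds cytoplasmic polyadenylation elements in mRNAs and regulates their poly(A) tails and translation.

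Footprints counted in genes came to 4889212 and 5910911 in siCpeb4 replicates 1 and 2, and to 5863879 and 3554011 in control replicates 1 and 2. The targeted gene followed the labels, with 8.18 and 9.98 CPM (counts scaled to a common total of counts in genes) in siCpeb4 libraries, against 59.9 and 71.2 CPM in control libraries. Its log2 fold change was -2.86 ± 0.17 (SE, edgeR adjusted p = 1.57e-09). All 8 cardiomyocyte markers were detected. Their summed level was 48050 and 42840 CPM in siCpeb4 libraries and 41530 and 45920 CPM in control libraries. Myh6, the largest of them, had a positive log2 fold change (0.15), and the other 7 had negative ones. Of the 8, 0 were called, against 3.41% of all genes tested. Markers of other cells were present too. The 10 fibroblast markers summed to 9804 and 9262 CPM in siCpeb4 libraries and 13190 and 12150 CPM in control libraries, without overlap, and 1 of them, Col1a2, was listed at 0 in every library. Most of each sum was Col1a1, with 6072 and 5374 CPM in siCpeb4 libraries and 8586 and 7867 CPM in control libraries. Taken singly, 4 of the 9 fibroblast markers tested did not overlap between the groups, against 46.0% of all genes tested. Sums for macrophage and leukocyte markers were 499 and 624 CPM in siCpeb4 libraries, within the 717 and 488 CPM of control libraries. Of the 7 endothelial markers in the files the sums were 136 and 145 CPM in siCpeb4 libraries, and 166 and 135 CPM in control libraries. Of 8 smooth muscle and pericyte markers they were 6114 and 6502 CPM in siCpeb4 libraries, and 5830 and 5882 CPM in control libraries, also without overlap. Most of that was Acta2, with 4373 and 4797 CPM in siCpeb4 libraries and 3990 and 4051 CPM in control libraries. Of the 7 tested, 5 had a positive log2 fold change. The 2 negative ones, Tagln and Cspg4, were lower without overlap, as were 19.5% of all genes tested. The part of these markers in the results below was not tested. In footprints of a mixed culture, fewer cells of a type, less RNA per cell and less translation cannot be told apart.

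The comparison asks how loss of CPEB4 alters the footprints on each gene. The 10 genes were chosen by measured values of this same contrast, the footprint counts of siCpeb4 against control libraries scaled to the library total, so their values are a description and carry no test. Tmx4 stood apart from the others, with a mean of 91.4 CPM in siCpeb4 cells against 199 CPM in control cells. Of the 10 members, all of which passed the low-count filter, 1 (Tmx4) lay past the threshold for lower genes (edgeR adjusted p under 0.05 over all 11335 genes tested) and 0 lay past it for higher genes. Over all genes tested the shares were 1.87% lower and 1.54% higher, 3.41% in all. No other member was called in edgeR, in DESeq2 or in limma-voom, and an unadjusted edgeR p under 0.05 was met by 1 member with a higher and 2 with a lower level. The share of all genes tested at that unadjusted level was not worked out. Nothing is therefore read from this count, or from the same counts given for the lists below. The median log2 fold change of the 10 members was 0.08, against -0.003 over all genes tested, and 6 of them had a positive value.

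Tmx4 encodes a membrane-anchored member of the ER thioredoxin family, which is also found at the nuclear envelope. It had 459 and 525 counts in siCpeb4 replicates 1 and 2, which is 93.9 and 88.8 CPM. Control replicates 1 and 2 had 1244 and 659 counts, which is 212 and 185 CPM. Both siCpeb4 libraries were low and both control libraries high, with a wide gap between the groups. Means were 91.4 ± 3.58 CPM in siCpeb4 cells and 199 ± 18.9 CPM in control cells (SD, n = 2 each). The log2 fold change was -1.15 ± 0.11 (SE), a fold of 0.449, and it ranked 62 from the lowest among the genes tested. It ranged from -1.24 to -1.06 over 12 other ways of fitting the data, leaving out each library among them. The fit with crossed replicate numbers, also among them, was tried after results were seen. All these fits reuse the values by which the genes were chosen, so the range is a description and no independent support.

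The other TMX genes differed from Tmx4 in direction or in size. Tmx1, a close relative of Tmx4 that acts on membrane-bound clients, had 92.7 and 101.7 CPM in siCpeb4 libraries, against 69.8 and 94.0 CPM in control libraries. The groups overlapped, because control replicate 2 lay above siCpeb4 replicate 1. The log2 fold change of Tmx1 was 0.23 ± 0.13 (SE) and depended on the controls, with 0.46 without control replicate 2 and 0.01 without control replicate 1. Within single libraries, the ratio of Tmx1 to Tmx4 counts was 0.987 and 1.14 in siCpeb4 replicates 1 and 2, against 0.329 and 0.507 in control replicates 1 and 2. The ratio is built from the counts already given. Its difference between groups follows mostly from the log2 fold change of Tmx4 (-1.15) and in smaller part from that of Tmx1 (0.23).

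Tmx2, a TMX protein of the ER whose thioredoxin motif is not of the usual kind, had 211 and 212 CPM in siCpeb4 libraries, against 195 and 186 CPM in control libraries. The siCpeb4 libraries lay just above the controls, with a log2 fold change of 0.12 ± 0.10 (SE). Tmx3, a membrane-anchored isomerase, had 60.3 and 66.5 CPM in siCpeb4 libraries, against 78.5 and 72.9 CPM in control libraries. Both siCpeb4 libraries were below both controls, with a log2 fold change of -0.29 ± 0.12 (SE) that did not reach the threshold. Together the 4 Tmx genes held 0.0458% and 0.0469% of the footprints in siCpeb4 replicates 1 and 2, and 0.0556% and 0.0539% in control replicates 1 and 2. The Wilson 95% intervals ran from 0.0439% to 0.0487% over the siCpeb4 libraries and from 0.0515% to 0.0575% over the control libraries. Such intervals cover counting error only. Without Tmx4 the other 3 genes held 0.0364% and 0.0380% in siCpeb4 libraries and 0.0343% and 0.0353% in control libraries, so the lower sum came from Tmx4.

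**Figure D1:**
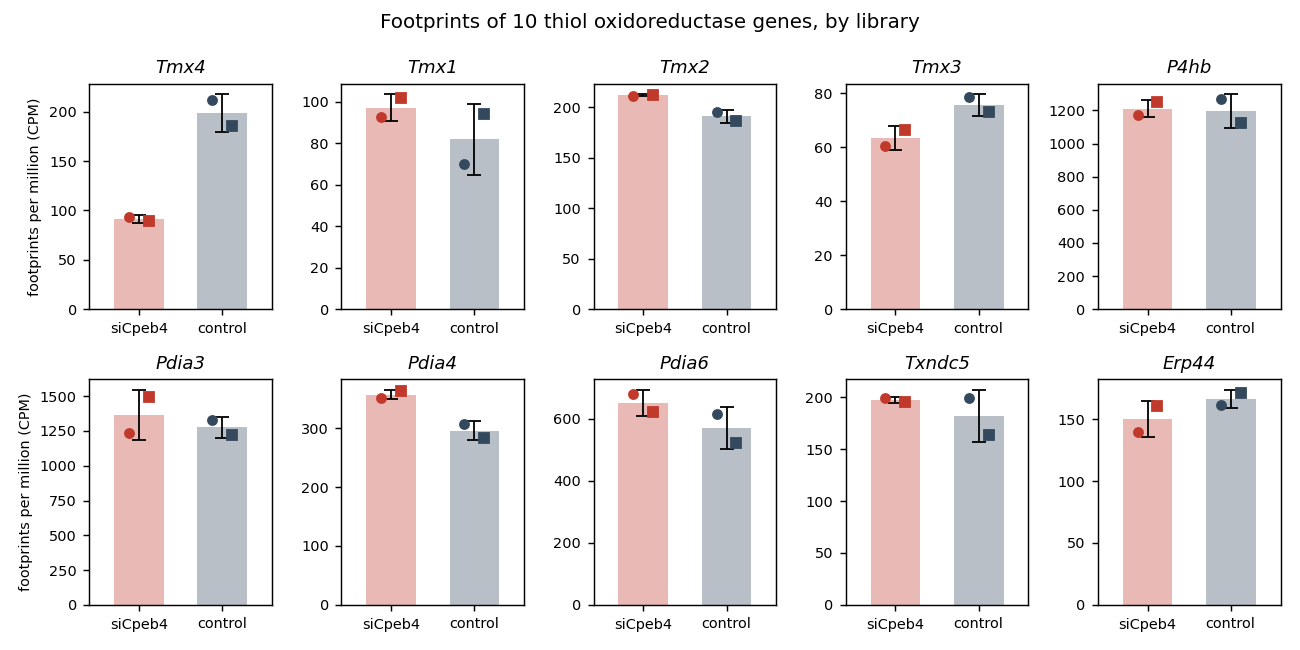
Footprint level (CPM, vertical axis from 0, own scale in each panel) of the 10 genes in siCpeb4 (left) and control (right) libraries. Circles are replicate 1, squares replicate 2, bars the mean and error bars the SD (n = 2 each). Tmx4 is at 93.9 and 88.8 CPM in siCpeb4 libraries, against 212 and 185 CPM in control libraries, and no other panel shows a gap of that size.

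The soluble isomerases of the ER lumen were close to the controls. P4hb encodes protein disulfide isomerase itself, which also serves as a subunit of collagen prolyl 4-hydroxylase. It had 1175 and 1249 CPM in siCpeb4 libraries, against 1268 and 1124 CPM in control libraries. The siCpeb4 values lay inside the range of the controls, and the log2 fold change was -0.01 ± 0.10 (SE). Pdia3 encodes ERp57, the isomerase that works with calnexin and calreticulin on glycoproteins, and had 1237 and 1491 CPM in siCpeb4 libraries, against 1327 and 1224 CPM in control libraries. Its groups overlapped, with a log2 fold change of 0.07 ± 0.10 (SE). The siCpeb4 replicates of Pdia3 differed by -0.24 on the log2 scale (replicate 1 minus replicate 2), more than the groups did.

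Pdia4 encodes ERp72, an isomerase with several thioredoxin domains. It had 351 and 362 CPM in siCpeb4 libraries, against 307.5 and 284 CPM in control libraries. Both siCpeb4 libraries were above both controls, and the log2 fold change of 0.24 ± 0.10 (SE) was the highest of the 10 genes without reaching the threshold. Pdia6 encodes P5, which associates with the chaperone BiP and with the stress sensor IRE1. It had 681 and 622 CPM in siCpeb4 libraries, against 617 and 522 CPM in control libraries. The groups of Pdia6 were separated by less than the replicates of either group, and the log2 fold change was 0.16 ± 0.11 (SE).

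Txndc5 encodes ERp46, an isomerase tied to fibrosis in the mouse heart. It had 199 and 195 CPM in siCpeb4 libraries, against 199 and 164 CPM in control libraries. Its groups overlapped, and the log2 fold change was 0.08 ± 0.11 (SE). Erp44 encodes the isomerase that cycles between the ER and the Golgi and returns escaped partners such as ERO1. It had 139.9 and 161 CPM in siCpeb4 libraries, against 161 and 171 CPM in control libraries. The siCpeb4 libraries were below the controls by less than the replicates of either group differed, and the log2 fold change was -0.17 ± 0.11 (SE).

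Across the family, siCpeb4 and control libraries did not overlap for 3 members that were higher (Tmx2, Pdia4 and Pdia6) and for 3 that were lower (Tmx3, Tmx4 and Erp44). That held for 26.5% of all genes tested in the higher direction and for 19.5% in the lower direction, 46.0% in all, and nothing is read from the members' count. The 6 members other than the Tmx genes held 0.378% and 0.408% of the footprints in siCpeb4 replicates 1 and 2, within reach of the 0.388% and 0.349% in control replicates 1 and 2. Those ranges overlapped. Control replicate 1 was above control replicate 2 for 8 of the 10 members. Apart from the count ratio of Tmx1 to Tmx4, which is not per length and ranks neither gene, levels of different members were not compared, because coding lengths were not used here.

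**Figure D2:**
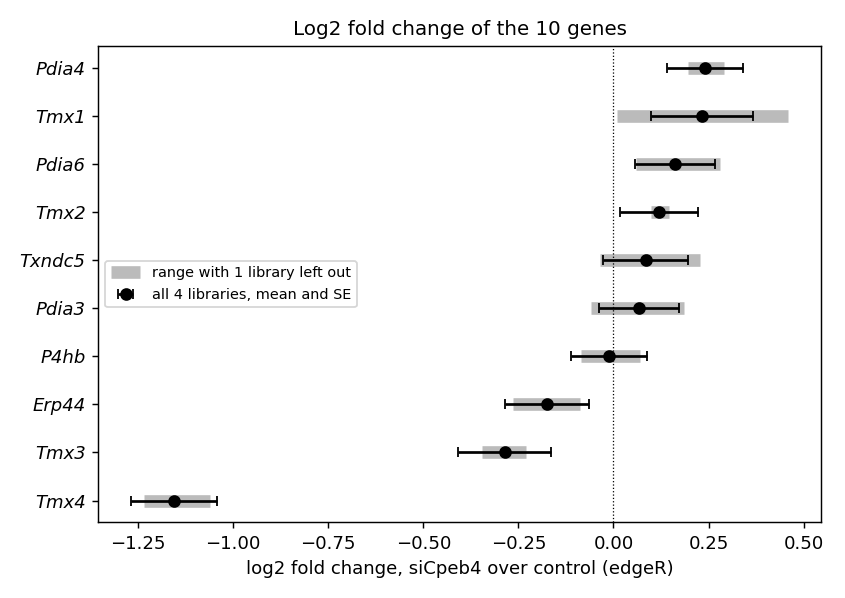
Log2 fold change of the 10 genes, siCpeb4 over control (horizontal axis), from the fit across all genes. Points are the values from all 4 libraries with their SE, and grey bars the range when 1 library at a time is left out. Tmx4 lies between -1.24 and -1.06 in every such fit, and the other 9 genes lie between -0.35 and 0.46.

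The genes whose profile over the 4 libraries was most like that of Tmx4 were Cmpk1, Znrf2 and Vps36. Likeness was the root mean square distance between centred log2 CPM values, among 8687 genes with at least 10 CPM on average, and was 0.058, 0.091 and 0.093 for the 3 genes. Cmpk1, a pyrimidine nucleotide kinase, had 22.3 and 20.6 CPM in siCpeb4 libraries, against 49.97 and 39.95 CPM in control libraries. Znrf2, a ubiquitin ligase, had 8.18 and 7.61 CPM in siCpeb4 libraries, against 16.2 and 16.3 CPM in control libraries. Vps36, a subunit of the ESCRT-II sorting complex, had 22.5 and 24.0 CPM in siCpeb4 libraries, against 48.9 and 48.4 CPM in control libraries. With 4 libraries this likeness mostly reflects the difference between the groups.

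In the wider family a single gene was called. Of 12 further genes of the protein disulfide isomerase family, 11 were in the files and 7 were tested. Of these 7, 1 fell and 0 rose, against 1.87% lower and 1.54% higher over all genes tested. Their median log2 fold change was -0.15. The gene that fell was Txndc12, which encodes the small ER thioredoxin ERp18. It had 45.8 and 51.3 CPM in siCpeb4 libraries, against 77.8 and 62.5 CPM in control libraries (log2 fold change -0.57 ± 0.13, SE, edgeR adjusted p = 0.0173). Txndc12 was not called by DESeq2 (adjusted p = 0.084). Nor was it called by edgeR when siCpeb4 replicate 1 (adjusted p = 0.091), siCpeb4 replicate 2 (0.0503) or control replicate 1 (0.38) was left out. Erp29 (-0.18 ± 0.13) and Pdia5 (-0.28 ± 0.20) had the next smallest p and were not called. Pdilt, Agr2 and Agr3 were listed at 0 in every library.

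Enzymes that feed oxidising power to the isomerases were listed together with ER selenoproteins and related genes of other roles. Of 16 ER oxidases, peroxidases and selenoproteins, 15 were tested, with a median log2 fold change of 0.01. In the main edgeR fit 0 of them rose and 0 fell, against 1.54% higher and 1.87% lower over all genes tested. DESeq2 and limma-voom also called 0 of them, while 1 higher and 3 lower genes had an unadjusted edgeR p under 0.05. Selenon, the selenoprotein that acts on the calcium pump of muscle, had 167.5 and 159 CPM in siCpeb4 libraries, against 128 and 120.4 CPM in control libraries (log2 fold change 0.36 ± 0.11, edgeR adjusted p = 0.075). Vkorc1, the vitamin K epoxide reductase, had 39.7 and 30.1 CPM in siCpeb4 libraries, against 47.9 and 47.0 CPM in control libraries (-0.48 ± 0.15, edgeR adjusted p = 0.090), and it fell without siCpeb4 replicate 1 (adjusted p = 0.023) or without the low-count filter (0.036). Ero1a, the main oxidase of the isomerases, had 72.0 and 71.4 CPM in siCpeb4 libraries, against 64.8 and 62.5 CPM in control libraries, and was not called.

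Genes of collagen modification and folding, which include the catalytic partners of P4hb, leaned lower. Of 15 tested, 12 had a negative log2 fold change, against 50.5% of all genes tested, with a median of -0.18. In edgeR 1 of them fell and 1 rose, against 1.87% lower and 1.54% higher over all genes tested. Fkbp10, a collagen chaperone, had 79.0 and 70.6 CPM in siCpeb4 libraries, against 96.9 and 103 CPM in control libraries (-0.45 ± 0.12, edgeR adjusted p = 0.0391). Colgalt2, a collagen galactosyltransferase, had 56 and 74 counts in siCpeb4 libraries and 37 and 20 counts in control libraries, and lay at the threshold (0.96 ± 0.27, edgeR adjusted p = 0.0498). Fkbp10 was not called without siCpeb4 replicate 2 (edgeR adjusted p = 0.22), control replicate 1 (0.11) or control replicate 2 (0.23), by DESeq2 (0.14) or with library totals alone (0.065). Colgalt2 lost its call whichever library was left out (edgeR adjusted p from 0.087 to 0.22). Plod3 (-0.34 ± 0.11, edgeR adjusted p = 0.10) and Plod2 (-0.32 ± 0.12, edgeR adjusted p = 0.16), which hydroxylate lysines of collagen, had the next smallest p and were not called. P4ha1, the catalytic subunit that pairs with P4hb, had 238.5 and 254 CPM in siCpeb4 libraries, against 258 and 250.7 CPM in control libraries. The fibroblast markers were lower alongside this list, with 8 of 9 tested markers negative, a median of -0.25 and 1 called (Col1a1, -0.55).

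Genes of the unfolded protein response, the programme that raises ER chaperones and several isomerases under stress, leaned higher. Of 15 tested, 14 had a positive and 1 a negative log2 fold change, while 50.5% of all genes tested were negative. The median was 0.16, against -0.003 over all genes tested. In edgeR 2 rose and 0 fell, against 1.54% higher and 1.87% lower over all genes tested. The list was chosen with earlier results of these data known, so these counts are a description. Dnajb9, a co-chaperone that binds IRE1, had 93.9 and 107 CPM in siCpeb4 libraries, against 69.4 and 63.6 CPM in control libraries (0.56 ± 0.12, edgeR adjusted p = 0.0084). Hyou1, a large ER chaperone, had 525 and 514 CPM in siCpeb4 libraries, against 402 and 383 CPM in control libraries (0.37 ± 0.10, edgeR adjusted p = 0.0365). Hspa5, the chaperone BiP, had 3037 and 3205 CPM in siCpeb4 libraries, against 2496 and 2422 CPM in control libraries (0.31 ± 0.10), and was called by DESeq2 (adjusted p = 0.045) but not by edgeR (adjusted p = 0.085). Hyou1 lost its call whichever library was left out (edgeR adjusted p from 0.060 to 0.27), and Dnajb9 lost it without siCpeb4 replicate 2 (0.084) or control replicate 2 (0.073).

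**Figure D3:**
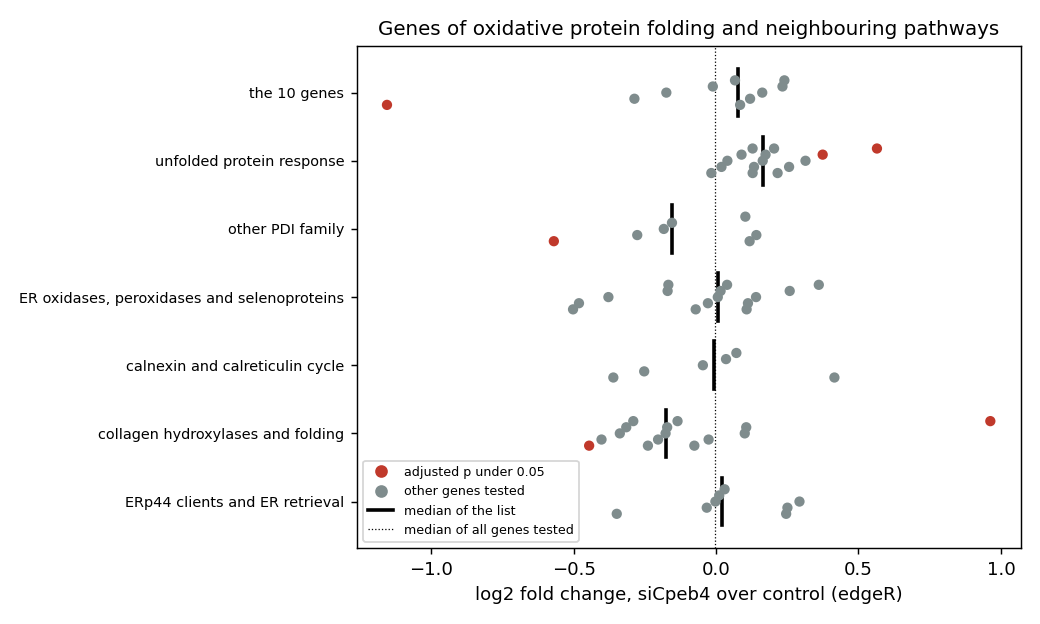
Log2 fold change, siCpeb4 over control (horizontal axis), of the 10 genes and of 6 lists of related genes. Each point is a gene tested, red where edgeR adjusted p was under 0.05; black ticks are list medians and the dotted line is the median of all genes tested. Tmx4 at -1.15 is the lowest point, and 14 of 15 unfolded protein response genes lie above 0.

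Many stress-responsive ER genes carry an ER stress element in their promoter, and its letters are shown here because chaperone genes and isomerases are often described as sharing it. RefSeq promoters of 300 bases (250 before and 50 after the start, build GRCr8) were matched for 7 of the 10 members, and were not matched for Tmx1, Pdia3 and Pdia6. The element was searched on both strands as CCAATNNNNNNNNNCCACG, its second form as ATTGGNCCACG, and the core of the unfolded protein response element as TGACGTGG. Over all 33469 promoters the shares with a match were 0.0657%, 0.0508% and 0.595%. At such shares a match in 7 promoters would be rare, and 0 of the 7, that of Tmx4 included, had one. In the unfolded protein response list, promoters were matched for 12 of the 15 genes (13 promoters, since Hyou1 has 2). Of these genes 4 held the first form, 3 the second and 1, Hyou1, the core as well. The sites of 4 of these genes are given with the fixed letters in capitals, read 5′ to 3′ on the strand that matches.
Hspa5: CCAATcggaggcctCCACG
Xbp1: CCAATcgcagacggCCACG
Dnajc3: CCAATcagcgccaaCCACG
Herpud1: ATTGGgCCACG
The first 3 are on the plus strand of GRCr8, at chr3:38452973-38452991, chr14:84604558-84604576 and chr15:102432534-102432552, and that of Herpud1 is on the minus strand at chr19:10614821-10614831. The log2 fold changes of these 4 genes were 0.31 ± 0.10, 0.17, 0.09 and 0.26 ± 0.11, and the main edgeR fit called 0 of them. The other 3 genes with a match were Hsp90b1 (0.20), Dnajb11 (0.16) and Hyou1 (0.37 ± 0.10), of which edgeR called Hyou1. A match in these letters is a description and does not show binding.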

How the data were processed

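Footprint libraries of 2 siCpeb4 and 2 control samples were compared. The deposited files hold raw counts per Ensembl gene, from uniquely mapped reads of 29 to 34 nt (29 to 33 nt in siCpeb4 replicate 2), per the file names. Bowtie2, STAR 2.7, HTSeq 0.12 and Rnor_6.0 are named in the submitters' processing notes, without roles. Whether counting used strand is not stated there, so overlapping and antisense genes are uncertain. Protected fragments came from RNase I digests of polysome fractions, per the labels' protocols. Matched RNA-seq was not analysed here, and footprint levels therefore mix mRNA amount and translation. HTSeq summary rows were left out; reads without a feature made up 4.42% to 4.63% of counted reads. The labels do not name separate cultures for the replicates; a p-value here reflects the spread between these libraries, which may be technical. Replicates were not copies of 1 library (chi-square per degree of freedom 5.32 for siCpeb4 and 3.0 for control).

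The test was edgeR 4.0.16's quasi-likelihood F-test in R 4.3.3 (TMM, filterByExpr with a minimum count of 10, group as the only term, two-sided, Benjamini-Hochberg over 11335 genes, called at 0.05). SE was derived from the F statistic, and CPM is scaled to the library's gene counts. Alternatives were RLE factors, library totals, 2 other filters, DESeq2 1.42.0, limma-voom (limma 3.58.1), the replicate number as a block and each library left out. The workflow was tested on simulated data. The members and lists were chosen with earlier results of these data known. Named genes were the members, Cpeb4, called genes and up to 2 others of smallest p per list, and the 3 profiles nearest to Tmx4. Genes named beyond that rule, after their values were seen, are Ero1a, P4ha1, Xbp1, Dnajc3, Hsp90b1, Dnajb11, Canx, Calr, Calr3, Uggt1, Col1a1, Col1a2, Myh6, Acta2, Tagln, Cspg4, Pdilt, Agr2 and Agr3. An order of members by footprints per codon was planned and not made, since no protein lengths were used here.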

Additional observations from a re-analysis of the deposited data

How the results depend on the processing

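The 10 members' log2 fold changes were recomputed in 120 fits, and the side of the threshold changed in 0 of them. The sign turned in 5 fits, each near 0. P4hb was 0.019 with library totals alone and ranged from -0.084 to 0.069 with 1 library left out, above 0 without siCpeb4 replicate 1 (0.022) or control replicate 1. Pdia3 ranged from -0.059 (without siCpeb4 replicate 2) to 0.19, and Txndc5 from -0.035 (without control replicate 2) to 0.23. The cause was not tested. A group reduced to 1 library borrows its spread from the other group. The count of called genes over the whole table was 386 and became 606 without the low-count filter (352 of them lower, against 212) and 192 in DESeq2 (77 higher and 115 lower). It ranged from 212 to 318 with 1 library left out, 79 to 133 higher and 133 to 185 lower, with the fewest calls without control replicate 1. With the replicate number as a block the count was 403, and among the named genes Hyou1 (edgeR adjusted p = 0.062) and Colgalt2 (0.067) lost their calls. With crossed numbers, tried after seeing that replicate differences correlated at -0.11, it was 481. Of the 17 named pathway genes, values in other fits kept their side of the threshold in 169 of 202 cases, lost a call in 23 and gained one in 10. The order of members by footprints per codon under another scaling was not run. The lowest count of a member in a library was 259 (Tmx3, control replicate 2).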

Other observations

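Glucosidase II trims glucose from glycoproteins and so governs their release from calnexin, and neither of its subunits was called in the main edgeR fit. Both lay lower without overlap between the groups, as did 19.5% of all genes tested. Ganab, the catalytic subunit, had 256 and 253 CPM in siCpeb4 libraries, against 315.5 and 325 CPM in control libraries. Its log2 fold change was -0.36 ± 0.10 (SE), just outside the threshold in the main edgeR fit (adjusted p = 0.0505). Ganab was called in 4 of the 12 other fits. These were limma-voom (adjusted p = 0.041) and 3 edgeR fits. The edgeR fits were without the low-count filter (0.029), with at least 30 counts in 2 libraries (0.047) and with crossed replicate numbers (0.031). Prkcsh, the regulatory subunit, had 248 and 233 CPM in siCpeb4 libraries, against 286 and 275.5 CPM in control libraries (-0.25 ± 0.10, edgeR adjusted p = 0.21). Of 6 tested genes of the calnexin and calreticulin cycle, 0 were called in the main edgeR fit or by DESeq2 and 1 by limma-voom. The main edgeR fit called 3.41% of all genes tested. An unadjusted edgeR p under 0.05 was met by 2 lower and 0 higher genes, and the median log2 fold change was -0.01. Canx, Calr and Uggt1 overlapped between the groups. Calr3, a relative of calreticulin, had the largest log2 fold change of the list in the other direction (0.42, edgeR adjusted p = 0.39), with 14.3 and 15.2 CPM in siCpeb4 libraries, against 10.6 and 11.3 CPM in control libraries.

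Among 8 tested clients of ERp44 and genes of ER retrieval, 0 were called by edgeR, DESeq2 or limma-voom. The main edgeR fit called 3.41% of all genes tested, so nothing is read from that count. An unadjusted edgeR p under 0.05 was met by 2 higher and 1 lower genes, and the median log2 fold change was 0.02. Lman1, a cargo receptor that ERp44 accompanies, had 202 and 205 CPM in siCpeb4 libraries, against 159.5 and 176 CPM in control libraries (0.25 ± 0.11, edgeR adjusted p = 0.24). Kdelr3, a receptor that returns ER proteins, had 31.9 and 39.9 CPM in siCpeb4 libraries, against 45.9 and 43.9 CPM in control libraries (-0.35 ± 0.15, edgeR adjusted p = 0.23).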
